A study of Mus musculus with 10 samples.

Results

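Mir483 and the imprinted genes around it on distal chromosome 7 were followed in RNA-seq of mouse fetal liver. The set held 10 genes, taken by their Ensembl identifiers from the 55401 genes of the count table: Mir483, its host gene Igf2, the neighbouring H19, and Kcnq1ot1, Cdkn1c, Phlda2, Slc22a18, Cd81, Nap1l4 and Tspan32 of the Kcnq1 domain. All 10 were among the 14098 genes with enough counts to be tested. The livers came from female fetuses at the late fetal stage E18.5 on a C57BL/6J background. In 5 fetuses (Mir483Pat-KO) Mir483 was missing from the allele inherited from the father, and the 5 controls were their wild-type (WT) littermates. The allele was made by gene targeting in C57BL/6N embryonic stem cells (JM8.F6), from which the selection marker was removed in culture with Cre recombinase, and it passed through the germ line. The deletion was therefore present in every tissue and not in the liver alone. Whether a given fetus descended from one stem cell clone or another was not given in the sources used here.

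Imprinted genes are expressed from 1 parental allele. In the Igf2/H19 domain an imprinting control region lets the paternal allele express Igf2, a fetal growth factor, and the maternal allele express H19, a long noncoding RNA. In the Kcnq1 domain the control region is the promoter of Kcnq1ot1, a long noncoding RNA made from the paternal allele that silences neighbouring genes in cis, so that Cdkn1c, Phlda2 and Slc22a18 are expressed mainly from the maternal allele. Cd81, Nap1l4 and Tspan32 lie in the same domain and are known for imprinting chiefly in the placenta. The counts in the table do not separate parental alleles.

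Mir483 lies on the minus strand of chromosome 7 within an intron of Igf2. Its hairpin and both mature microRNAs are shown because they are the deleted element. In the hairpin the capitals mark the mature microRNAs, and in each mature sequence they mark the seed (bases 2 to 8 from the 5′ end), the part that pairs with target transcripts. Coordinates and sequences are those of RefSeq (GRCm38.p6), for the hairpin chr7:142654924-142654996.

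Mir483 hairpin: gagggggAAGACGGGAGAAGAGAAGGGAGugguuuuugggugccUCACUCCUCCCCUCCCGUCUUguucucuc
mmu-miR-483-5p: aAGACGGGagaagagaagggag
mmu-miR-483-3p: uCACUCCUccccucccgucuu

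H19 holds a microRNA of its own, Mir675, on the same strand (hairpin at chr7:142577064-142577147). Its mature sequences are shown for comparison, and none of the 4 mature microRNAs of the domain shared a seed with another.

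mmu-miR-675-5p: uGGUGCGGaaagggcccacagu
mmu-miR-675-3p: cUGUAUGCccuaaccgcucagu

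The 7-base site AGGAGTG, complementary to the miR-483-3p seed, was searched in the longest annotated transcript of the other 9 genes. It was found 2 times in Igf2 and 9 times in Kcnq1ot1, whose single transcript is 93092 bases long, and was not found in the longest transcript of H19, Cdkn1c, Phlda2, Slc22a18, Cd81, Nap1l4 or Tspan32. The site for miR-483-5p, CCCGTCT, was found 1 time in Kcnq1ot1 and in none of the other 8 transcripts. Of the longest transcripts of 21951 protein-coding genes, 25.6% held AGGAGTG and 7.9% held CCCGTCT. A match of these letters is a description of the sequence and does not show binding.

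In the Kcnq1 domain, promoter sequences are shown for 3 genes whose levels departed together in a WT library described below. Capitals mark CCAAT or its reverse complement ATTGG, the box bound by NF-Y; both strands were searched. The 300-base window of Kcnq1ot1, from 250 bases before its start to 50 after it (chr7:143296498-143296797, minus strand), held 3 such boxes. At least 1 box was present in 37.4% of the 32851 RefSeq promoter windows and 3 or more in 3.37% of them. Of Phlda2 (chr7:143502525-143502774, minus strand) and Slc22a18 (chr7:143473539-143473788, plus strand) the 250 bases before the start of the RefSeq transcript are shown. The gene spans given below are those of GENCODE, which begin further upstream for both genes, so all of the Phlda2 stretch and the end of the Slc22a18 stretch lie inside them.

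Kcnq1ot1 promoter: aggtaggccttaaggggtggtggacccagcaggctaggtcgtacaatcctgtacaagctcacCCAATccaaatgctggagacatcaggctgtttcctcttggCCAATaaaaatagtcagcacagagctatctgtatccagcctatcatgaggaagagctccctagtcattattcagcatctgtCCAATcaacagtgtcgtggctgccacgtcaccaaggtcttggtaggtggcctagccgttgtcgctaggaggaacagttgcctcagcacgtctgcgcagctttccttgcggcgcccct
Phlda2 before the RefSeq start: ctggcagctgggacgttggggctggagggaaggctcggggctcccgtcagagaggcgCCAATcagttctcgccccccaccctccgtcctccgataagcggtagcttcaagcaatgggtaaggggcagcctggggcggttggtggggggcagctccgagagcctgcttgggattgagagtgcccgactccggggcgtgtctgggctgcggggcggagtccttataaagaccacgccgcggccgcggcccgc
Slc22a18 before the RefSeq start: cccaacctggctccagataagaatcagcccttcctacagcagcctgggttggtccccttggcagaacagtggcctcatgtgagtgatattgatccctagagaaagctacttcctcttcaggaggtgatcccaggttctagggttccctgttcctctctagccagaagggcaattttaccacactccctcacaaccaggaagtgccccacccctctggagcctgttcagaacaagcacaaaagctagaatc

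Phlda2 had 1 box and Slc22a18 had none in the 300-base window. The windows also differed in CG dinucleotides, the bases at which DNA methylation is laid down. The Phlda2 window held 26, a number reached by 16.9% of all windows, the Kcnq1ot1 window held 9, and the Slc22a18 window held 2, against a median of 7 over all windows.

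Total counts ranged from 10831350 to 14765880 per library, and between 20587 and 21751 genes had a count. All 6 hepatocyte markers examined (Alb, Afp, Ttr, Apoa1, Trf and Serpina1a) were detected, with a summed level of 204882 to 227312 CPM (counts scaled to a common library size) for WT against 186370 to 217388 CPM for Mir483Pat-KO. Identification numbers in the labels fell into a lower range (4 WT and 2 Mir483Pat-KO) and an upper range (1 WT and 3 Mir483Pat-KO), and what a range stands for was not given. The common size was set by the trimmed mean of M-values (TMM). Adjusted p-values of single genes came from the edgeR quasi-likelihood test and were adjusted over all genes tested, while those of ratios and correlations came from permutation tests and were adjusted over the ratios or pairs compared.

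1 library stood apart in the Kcnq1 domain. In WT replicate 2 Cdkn1c was at 133 counts against 1498 to 5424 in the other 9 libraries. Slc22a18 was at 14 counts against 128 to 192, and Phlda2 at 1 count against 40 to 80. The 3 genes that depend on the maternal allele were thus far below every other library in a control fetus. Results for these genes are therefore given with and without this library. Its total of 12290936 counts lay within the range of the others.

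Mir483 was examined first, because it was the gene deleted. Reads of a polyA library come from longer transcripts that cross the hairpin and not from the mature microRNAs. Mir483 had 11, 10, 22, 21 and 12 counts in WT replicates 1 to 5 and 0 counts in all 5 Mir483Pat-KO libraries. The groups did not overlap, and the labels were borne out in all 10 libraries. In WT the mean was 1.17 CPM ± 0.392 (SD, n = 5). Against a floor of 3 counts over the Mir483Pat-KO libraries together, or 0.0463 CPM, Mir483 was at least 25.3-fold lower (adjusted p = 0.00133).

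Mir483 and its host are counted separately, and the ratio of Mir483 to Igf2 counts, as a percent and not scaled for length, lay between 0.540% and 1.16% in WT. WT replicate 2 had the lowest ratio (10 Mir483 to 1853 Igf2 counts, exact 95% interval of the ratio 0.258% to 0.995%) and WT replicate 4 the highest (21 to 1817 counts, 0.714% to 1.77%). These intervals overlap, so at this depth the WT libraries could not be told apart in this ratio. Igf2 shares most of its exonic bases with another gene, and if reads common to both were left uncounted these ratios would be too high. In Mir483Pat-KO, with 0 Mir483 and 8074 Igf2 counts over the 5 libraries, a floor of 3 counts allows a ratio of up to 0.0372%. Intervals and floors cover counting error only.

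Igf2 (ENSMUSG00000048583, chr7:142650766-142666816, minus strand), which encodes insulin-like growth factor 2, differed little between groups. It stood at 116, 155, 146, 140 and 153 CPM in WT replicates 1 to 5 and at 116, 123, 134, 104 and 140 CPM in Mir483Pat-KO replicates 1 to 5. The groups overlapped, with WT replicate 1 at the level of the lower Mir483Pat-KO libraries. The log2 fold change was -0.20 ± 0.0918 (SE), with a 95% interval of -0.40 to -0.01 and an adjusted p of 0.205, so Igf2 did not pass the test. Without WT replicate 2 the change was -0.18 (adjusted p = 0.296), and with the identification number range as a covariate it was -0.24 (adjusted p = 0.127). With offsets for GC content and length it was smaller, at -0.10 (edgeR, adjusted p = 0.537). Of the exonic bases of Igf2, 62.8% also belong to Gm49394, an overlapping gene on the same strand, which had at most 1 count in any library.

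H19 (ENSMUSG00000000031, chr7:142575529-142578143, minus strand), the noncoding RNA of the domain, stood at 16609.5, 18980.5, 17424.6, 16999 and 18172.8 CPM in WT replicates 1 to 5 and at 18718.9, 18002.6, 18311.7, 17552.3 and 16721.7 CPM in Mir483Pat-KO replicates 1 to 5. The groups overlapped over nearly their whole range. The log2 fold change was 0.02 ± 0.0697 (SE, adjusted p = 0.910), with a 95% interval of -0.13 to 0.17. Per kilobase of exon H19 was at 7170 CPM ± 386 in WT (SD, n = 5), against 24.9 CPM per kilobase ± 2.72 for Igf2. If reads shared by Igf2 and Gm49394 were left uncounted, the level of Igf2 per kilobase would be too low.

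The balance of the maternally expressed H19 to the paternally expressed Igf2 was then taken as 1 value per library. The log2 ratio of H19 to Igf2 counts was 6.96 ± 0.111 for WT against 7.18 ± 0.200 for Mir483Pat-KO (SD of 5 libraries each). The difference of 0.22 was not past the threshold (exact permutation test, two-sided, p = 0.0714, adjusted over 2 ratios p = 0.143; smallest possible p = 0.00794). The ratio was highest in Mir483Pat-KO replicate 4 and lowest in WT replicate 5, and Mir483Pat-KO replicates 3 and 5 lay within the WT range. Leaving out either WT replicate 1 or Mir483Pat-KO replicate 5 brought the exact permutation p to 0.0397 and 0.0238.

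Of 7 other genes listed for the Igf2/H19 domain, 2 had enough counts to be tested, and 0 passed (edgeR, with 0 at an unadjusted p under 0.05 as well, against 5.19% and 22.2% of all genes tested). Igf2os, the antisense transcript of Igf2, averaged 11.3 CPM ± 1.53 for WT against 10.02 CPM ± 0.975 for Mir483Pat-KO (SD of 5 libraries each, adjusted p = 0.388). Mrpl23, a mitochondrial ribosomal protein gene at the border of the domain, was at 8.999 CPM ± 0.282 and 8.68 CPM ± 1.15 (adjusted p = 0.818). Mir675 had 0 counts in all 10 libraries, although it lies within the abundant H19, where all of its bases are shared with H19 exons. Ins2, an insulin gene, had 0 to 14 counts, and Th, which makes catecholamines, had at most 1.

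**Figure D1:**
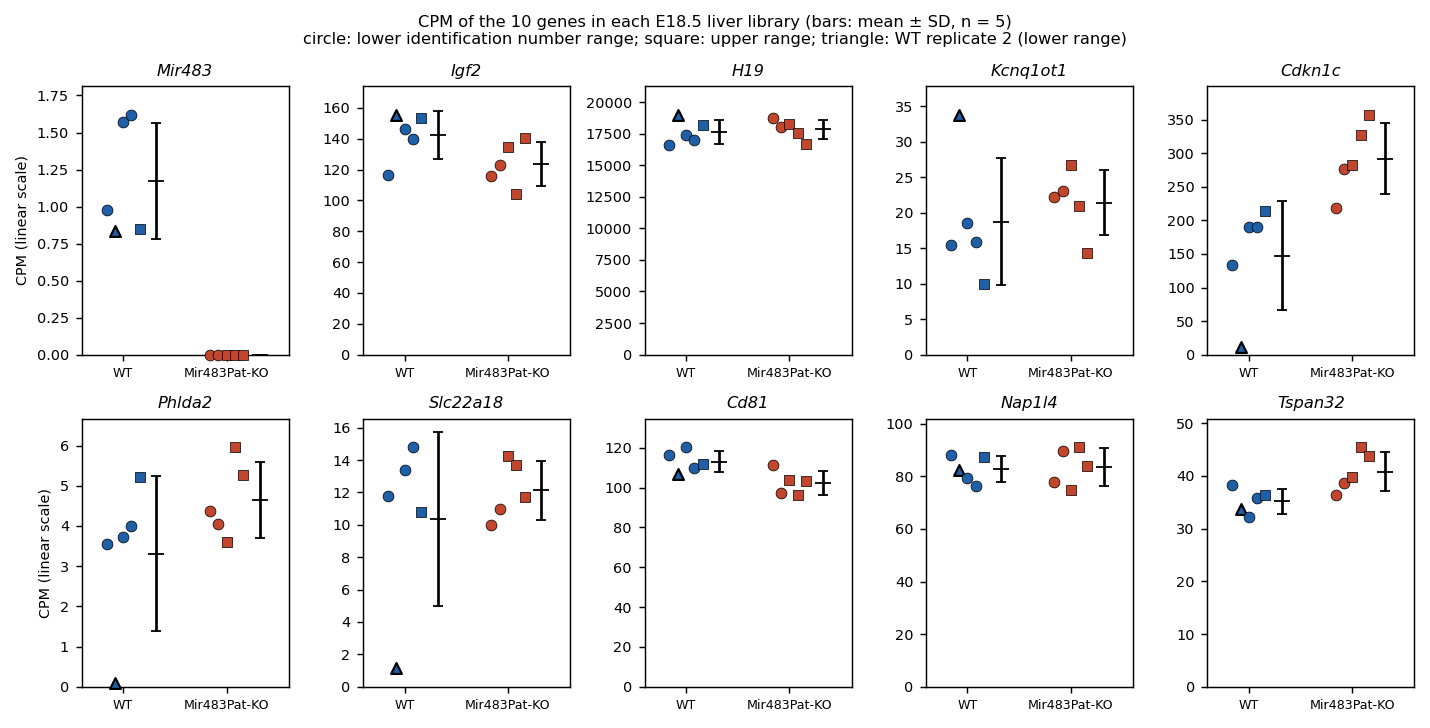
CPM (linear scale) of the 10 genes in each library, with WT in blue and Mir483Pat-KO in red. Bars give the mean and SD of 5 libraries, circles and squares mark the lower and upper identification number ranges, and the triangle is WT replicate 2. Mir483 is at 0 in all 5 Mir483Pat-KO libraries, and WT replicate 2 lies at the bottom of the Cdkn1c, Phlda2 and Slc22a18 panels and at the top of the Kcnq1ot1 panel.

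Cdkn1c (ENSMUSG00000037664, chr7:143458339-143461050, minus strand) encodes p57, an inhibitor of cyclin-dependent kinases that restrains fetal cell division. In WT replicates 1 to 5 it stood at 133, 11.1, 190, 190 and 214 CPM. In Mir483Pat-KO replicates 1 to 5 it stood at 218, 276, 283, 328 and 357 CPM. Every Mir483Pat-KO library was above every WT library, although the lowest, Mir483Pat-KO replicate 1, exceeded WT replicate 5 by little. Among the 10 genes the groups did not overlap for Cdkn1c and Mir483, while they did not overlap for 6.6% of all genes tested, and for 3.34% with Mir483Pat-KO higher.

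With all libraries the log2 fold change of Cdkn1c was 0.98 ± 0.423 (SE), with a 95% interval of 0.09 to 1.88 and an adjusted p of 0.183. Without WT replicate 2 the mean was 182 CPM ± 34.5 in WT (SD, n = 4) and 292 CPM ± 53.2 in Mir483Pat-KO (SD, n = 5), a log2 fold change of 0.68 ± 0.139 (SE, adjusted p = 0.0118) or 1.598-fold. Cdkn1c thus passed the threshold when the control with the lowest level was left out, and the SD of the WT libraries was then 34.5 CPM in place of 82.0 CPM. The groups still did not overlap, as for 5.13% of genes tested without this library with Mir483Pat-KO higher. Leaving out each of the other 9 libraries in turn, with WT replicate 2 kept, gave adjusted p-values of 0.179 to 0.304.

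The level of Cdkn1c also moved with the identification number range. In the lower range it was 133, 190 and 190 CPM in WT replicates 1, 3 and 4 and 218 and 276 CPM in Mir483Pat-KO. In the upper range it was 214 CPM in the single WT library and 283 to 357 CPM in Mir483Pat-KO. Mir483Pat-KO was the higher group within each range. The 3 Mir483Pat-KO livers of the upper range were also the lowest of all libraries in summed hepatocyte markers (186370 to 191416 CPM) and the highest in erythroid markers, and the part of this in the level of Cdkn1c was not tested. Without WT replicate 2 and with the range as a covariate the log2 fold change was 0.55 ± 0.116 (SE, adjusted p = 0.0104), and in the lower range alone it was 0.54 ± 0.147 (SE, adjusted p = 0.119).

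Kcnq1ot1 (ENSMUSG00000101609, chr7:143203458-143296549, minus strand) showed a smaller departure in the opposite direction. WT replicates 1 to 5 stood at 15.5, 33.8, 18.6, 15.9 and 10.01 CPM and Mir483Pat-KO replicates 1 to 5 at 22.2, 23.1, 26.7, 20.9 and 14.3 CPM. WT replicate 2 had the highest level of all 10 libraries, at 225% of the mean of the other 4 WT libraries (exact Poisson 95% interval of its 403 counts, 204% to 248%). The genotype difference was 0.20 ± 0.237 on the log2 scale (SE, adjusted p = 0.669) with all libraries and 0.51 ± 0.172 (SE, adjusted p = 0.0839) without WT replicate 2, where Mir483Pat-KO replicate 5 still lay among the WT values. Leaving out WT replicate 5 instead brought it to 0.03 (edgeR, adjusted p = 0.957). Offsets for GC content and length with all libraries brought it to 0.02 (edgeR, adjusted p = 0.963). The call without WT replicate 2 depended on the setting. Kcnq1ot1 passed with the range as a covariate (0.64, adjusted p = 0.0243), with DESeq2 (0.51, adjusted p = 0.0491) and with Mir483Pat-KO replicate 5 left out too (0.63, adjusted p = 0.0302), and not in the other 11 of 14 such settings, among them offsets for GC content and length (0.21, adjusted p = 0.358).

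Phlda2 (ENSMUSG00000010760, chr7:143501545-143503150, minus strand), known as a brake on placental growth, was a low-count gene in this tissue. It stood at 3.55, 0.0838, 3.72, 4.004 and 5.21 CPM in WT replicates 1 to 5 and at 3.60 to 5.96 CPM in Mir483Pat-KO. Apart from WT replicate 2 the groups overlapped. The log2 fold change was 0.47 ± 0.387 (SE, adjusted p = 0.511), and 0.16 ± 0.184 (SE, adjusted p = 0.649) without that library.

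Slc22a18 (ENSMUSG00000000154, chr7:143473736-143499334, plus strand), a member of the organic cation transporter family, lies between Cdkn1c and Phlda2. It stood at 11.8, 1.17, 13.4, 14.8 and 10.8 CPM in WT replicates 1 to 5 and at 9.99 to 14.2 CPM in Mir483Pat-KO. The groups overlapped apart from WT replicate 2. The log2 fold change of 0.21 ± 0.330 (SE, adjusted p = 0.749) changed sign to -0.07 ± 0.126 (SE, adjusted p = 0.772) without that library.

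As a share of the mean of the other 4 WT libraries, WT replicate 2 held 6.13% of Cdkn1c (exact Poisson 95% interval 5.13% to 7.26%), 9.25% of Slc22a18 (5.05% to 15.5%) and 2.03% of Phlda2 (0.0515% to 11.3%). These intervals overlap, so the counts do not separate the size of the loss between them. Gm44732, an antisense transcript of which 98.4% of the exonic bases lie opposite Cdkn1c exons, followed them with 1 count in WT replicate 2 against 15 to 55 in the other 9 libraries. It was named after its values were seen. Its log2 fold change was 1.01 ± 0.374 (SE, adjusted p = 0.123) with all libraries and 0.72 ± 0.241 (SE, adjusted p = 0.0830) without WT replicate 2, and if the counting ignored strand its reads could not be told apart from those of Cdkn1c. The same holds for Cdkn1c reads given to the wrong strand. Gm44732 had 15 counts beside 1498 of Cdkn1c in WT replicate 1 and 38 beside 5424 in Mir483Pat-KO replicate 5. Its low count is therefore not separate from that of Cdkn1c.

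**Figure D2:**
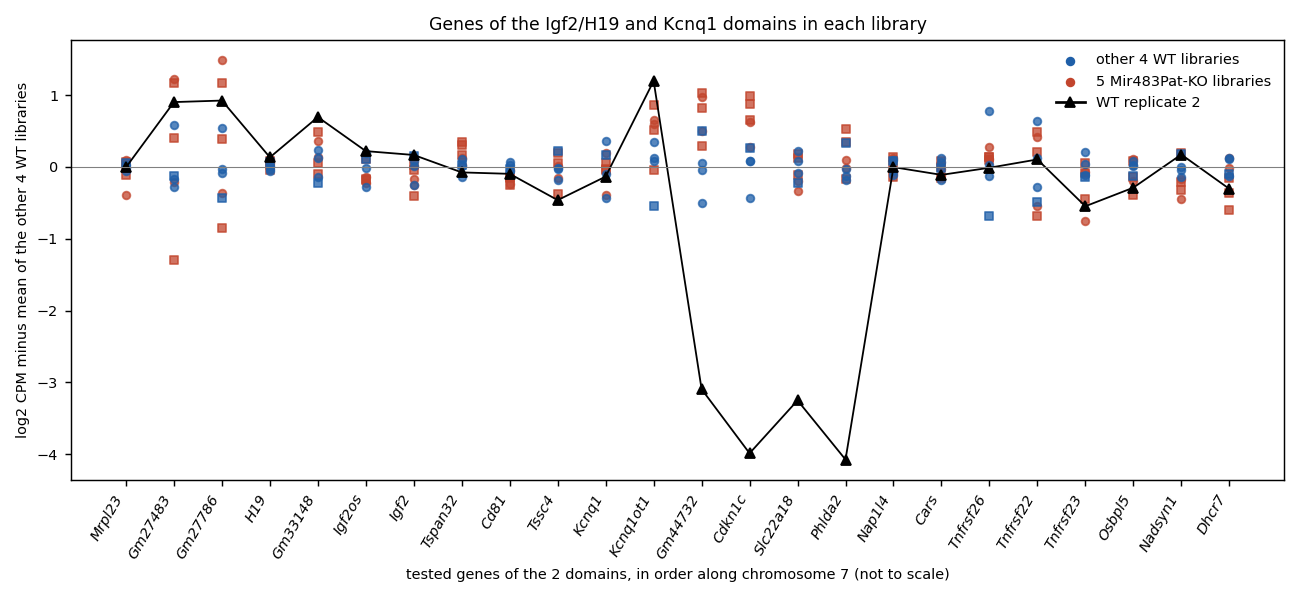
Log2 CPM (prior count 2) of each library minus the mean of WT replicates 1, 3, 4 and 5, for the tested genes of both domains in their order along chromosome 7 (equal spacing, not to scale). The line is WT replicate 2, which is above the other libraries at Kcnq1ot1 and far below them at Gm44732, Cdkn1c, Slc22a18 and Phlda2, and lies among or near them at the genes on either side.

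The genes on either side of this cluster were much closer to the other libraries in WT replicate 2. Nap1l4, a nucleosome assembly factor next to Phlda2, was at 82.5 CPM in WT replicate 2 against 76.5 to 88.2 CPM in the other WT libraries. Cd81, a tetraspanin of the cell surface, was at 107 CPM against 110 to 120 CPM, and Tspan32, a tetraspanin of blood cells, was at 33.7 CPM against 32.1 to 38.2 CPM. Tssc4 was at 72.0% of the mean of the other WT libraries and below every other library. Igf2 and H19 in WT replicate 2 were at 112% and 110% of the mean of the other WT libraries.

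These 3 genes at the edges of the domain did not pass the test of genotype. Cd81 (ENSMUSG00000037706) averaged 113 CPM ± 5.25 for WT against 102 CPM ± 5.98 for Mir483Pat-KO (SD of 5 libraries each), a log2 fold change of -0.14 ± 0.0638 (SE, adjusted p = 0.204). Nap1l4 (ENSMUSG00000059119) was at 82.8 CPM ± 5.01 and 83.5 CPM ± 7.13, a log2 fold change of 0.01 with a 95% interval of -0.14 to 0.17 (adjusted p = 0.940). Tspan32 (ENSMUSG00000000244) was at 35.2 CPM ± 2.36 and 40.8 CPM ± 3.74, a log2 fold change of 0.21 ± 0.0785 (SE, adjusted p = 0.124). With GC content and length offsets Tspan32 reached 0.30 and an adjusted p of 0.0273, and in the lower range alone it was 0.10 (adjusted p = 0.693).

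In all, 1 of the 10 genes passed at an adjusted p under 0.05, against 5.19% of all genes tested. The same gene, Mir483, was also the single one that passed with a fold change over 1.5, as did 1.23% of all genes tested. Cdkn1c had a larger fold change than 1.5 but did not pass. At an unadjusted p under 0.05 there were 5 of the 10 (Mir483, Igf2 and Cd81 lower, Cdkn1c and Tspan32 higher), against 22.2% of all genes tested. Without WT replicate 2, 2 of the 10 passed (Mir483 lower and Cdkn1c higher), against 6.07% of genes in either direction and 2.74% in the upward direction. The medians of the log2 fold changes of the 10 genes were 0.11 with all libraries and 0.02 without WT replicate 2, against 0.00 for all genes tested in both fits.

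Of 11 other genes listed for the Kcnq1 domain, 9 were tested and 0 passed (edgeR, with 0 at an unadjusted p under 0.05). Over all genes tested 5.19% passed and 22.2% were at an unadjusted p under 0.05, so a list of 9 genes may hold no call at the same share. Their log2 fold changes lay between -0.22 and 0.11. Kcnq1, a potassium channel gene whose body Kcnq1ot1 overlaps in antisense, averaged 1.40 CPM ± 0.342 for WT against 1.38 CPM ± 0.220 for Mir483Pat-KO (SD of 5 libraries each). Tssc4, which lies beside Cd81, was at 19.9 CPM ± 3.41 and 20.3 CPM ± 2.98, and Cars, a tRNA synthetase gene beyond Nap1l4, was at 53.4 CPM ± 4.70 and 52.5 CPM ± 3.57. The sterol enzyme gene Dhcr7 was at 128 CPM ± 15.5 and 117 CPM ± 22.5, Nadsyn1, which makes NAD, at 19.2 CPM ± 1.83 and 16.5 CPM ± 2.93, and the oxysterol-binding protein gene Osbpl5 at 6.36 CPM ± 0.654 and 6.15 CPM ± 0.879. The receptor genes Tnfrsf22, Tnfrsf23 and Tnfrsf26 had group means of 1.10 to 2.10 CPM. Ascl2, a trophoblast transcription factor, had 0 to 5 counts, and the channel gene Trpm5 had 0 to 18.

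**Figure D3:**
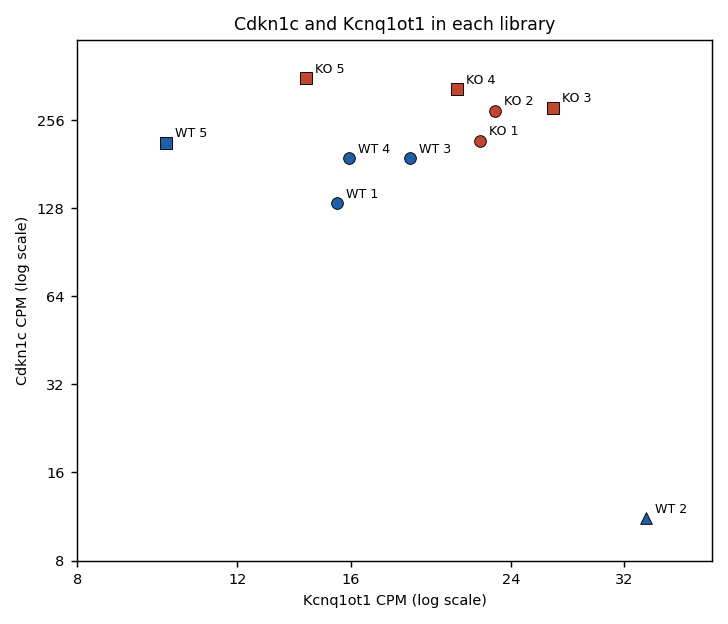
Cdkn1c against Kcnq1ot1 in each library, both in CPM on log scales, with WT in blue, Mir483Pat-KO (KO) in red, circles for the lower and squares for the upper identification number range, and a triangle for WT replicate 2. WT replicate 2, at 33.8 CPM of Kcnq1ot1 and 11.1 CPM of Cdkn1c, lies apart from the other 9 libraries.

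The ratio of Cdkn1c to Kcnq1ot1 counts put both departures into 1 value per library. WT replicate 2 had 0.330 Cdkn1c counts per Kcnq1ot1 count, and the other 9 libraries had 8.61 to 24.995. This log2 ratio was 2.57 ± 2.38 for WT against 3.78 ± 0.547 for Mir483Pat-KO (SD of 5 libraries each), a difference of 1.21 that was not past the threshold (exact permutation test, two-sided, p = 0.325). When WT replicate 2 was left out, the values were 3.61 ± 0.572 and 3.78 ± 0.547 (exact permutation test, p = 0.651). Cdkn1c and Kcnq1ot1 were thus both at higher means in Mir483Pat-KO than in the remaining WT libraries, and their ratio stayed within the spread of the libraries.

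5 pairs of genes were examined for common variation among the 10 libraries, as deviations of log2 CPM from the group mean, with permutation tests adjusted over the 5 pairs. Cdkn1c and Phlda2 moved together (Pearson r = 0.985, permutation p = 9e-05, adjusted p = 0.00045; Spearman rho = 0.939, permutation p = 0.00031, adjusted p = 0.00155). This value was set largely by WT replicate 2. With that library left out and the group means taken again r was 0.623, and with WT replicates 2 and 5, the farthest from the median of Cdkn1c, left out in the same way it was 0.526. Within the 6 libraries of the lower range, WT replicate 2 among them, it was 0.991.

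Kcnq1ot1 and Cdkn1c moved in opposite directions (r = -0.804, permutation p = 0.00596, adjusted p = 0.0149; rho = -0.733, permutation p = 0.0203, adjusted p = 0.0507). Without WT replicates 2 and 5, the libraries farthest from the median of Kcnq1ot1, and with group means taken again, r was -0.351, so the relation rested on these libraries. It was -0.945 in the lower range, which includes WT replicate 2, and -0.506 without WT replicate 2.

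The other 3 pairs did not pass after adjustment. For H19 and Cdkn1c r was -0.622 (permutation p = 0.0357, adjusted p = 0.0595), with rho at -0.503 (permutation p = 0.143, adjusted p = 0.238) and r at 0.198 without WT replicate 2 and Mir483Pat-KO replicate 5 (group means taken again) and -0.884 in the lower range. For Igf2 and H19 r was 0.315 (permutation p = 0.373, adjusted p = 0.466) and rho 0.224 (permutation p = 0.539, adjusted p = 0.674), with r at -0.164 without WT replicate 1 and Mir483Pat-KO replicate 4 and 0.725 in the lower range. For Igf2 and Cdkn1c r was -0.193 (permutation p = 0.605) and rho -0.115 (permutation p = 0.760), with r at -0.170 without the same pair of libraries and -0.480 in the lower range. Without WT replicate 2 the sign of this pair turned, with r at 0.585 and rho at 0.683.

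Among 9675 other genes with a mean log2 CPM of at least 3, those whose deviations across the 10 libraries were most like Cdkn1c were Slc22a18 (r = 0.975), Ctsd (r = 0.951) and Matn2 (r = 0.941). For Igf2 they were Zfp574 (r = 0.967), H6pd (r = 0.957) and Tbc1d2b (r = 0.895), and for H19 they included Jcad (r = 0.947) and Ccdc43 (r = 0.915). The points share libraries and depth, and the highest of 9675 correlations over 10 libraries are large by selection. With WT replicate 2 left out, r with Cdkn1c was 0.340 for Slc22a18, 0.822 for Ctsd and 0.511 for Matn2.

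The genes around Mir483 were then compared between genotypes. Among genes whose lower coordinate lay within 2 Mb of Mir483, 80 were tested, and 6 passed, all lower in Mir483Pat-KO, with a median log2 fold change of -0.05 over the 80 genes. One of the 6 was the deleted gene itself, and of all genes tested 5.19% passed in either direction and 2.76% with a lower level. Apart from Mir483 these were Irf7, a transcription factor of the interferon response (-1.05 ± 0.136), Ifitm3, an interferon-induced membrane protein (-0.60 ± 0.117), Slc25a22, a mitochondrial glutamate carrier (-0.42 ± 0.0838), Cyp2e1, a cytochrome P450 of the liver (-1.45 ± 0.290), and Shank2, a scaffold protein (-0.57 ± 0.144, log2 fold changes with SE). Their 5′ ends lay from -1891.2 kb (Cyp2e1) to -1217.1 kb (Slc25a22) and, for Shank2, at 1347 kb relative to Mir483. Interferon-response genes outside this window passed as well, among them Irgm1, Oasl1, Stat2 and Isg15. So did other cytochrome P450 genes, such as Cyp2d9 and Cyp27a1. Calls of these kinds were thus not particular to the surroundings of Mir483. In the lower range alone, where 23 genes passed in all, Slc25a22, Cyp2e1 and Shank2 did not pass. Slc25a22 also did not pass with GC content and length offsets. Shank2 did not pass when WT replicate 3, 4 or 5 or Mir483Pat-KO replicate 3, 4 or 5 was left out. Within 1 Mb, 27 genes were tested, and Mir483 was the single one that passed. In the fit without WT replicate 2, 8 of the 80 passed, against 6.07% of all genes, and 7 of them, Mir483 included, were lower, against 3.33%. Cdkn1c was the 1 of them that was higher, against 2.74% of all genes in that direction.

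**Figure D4:**
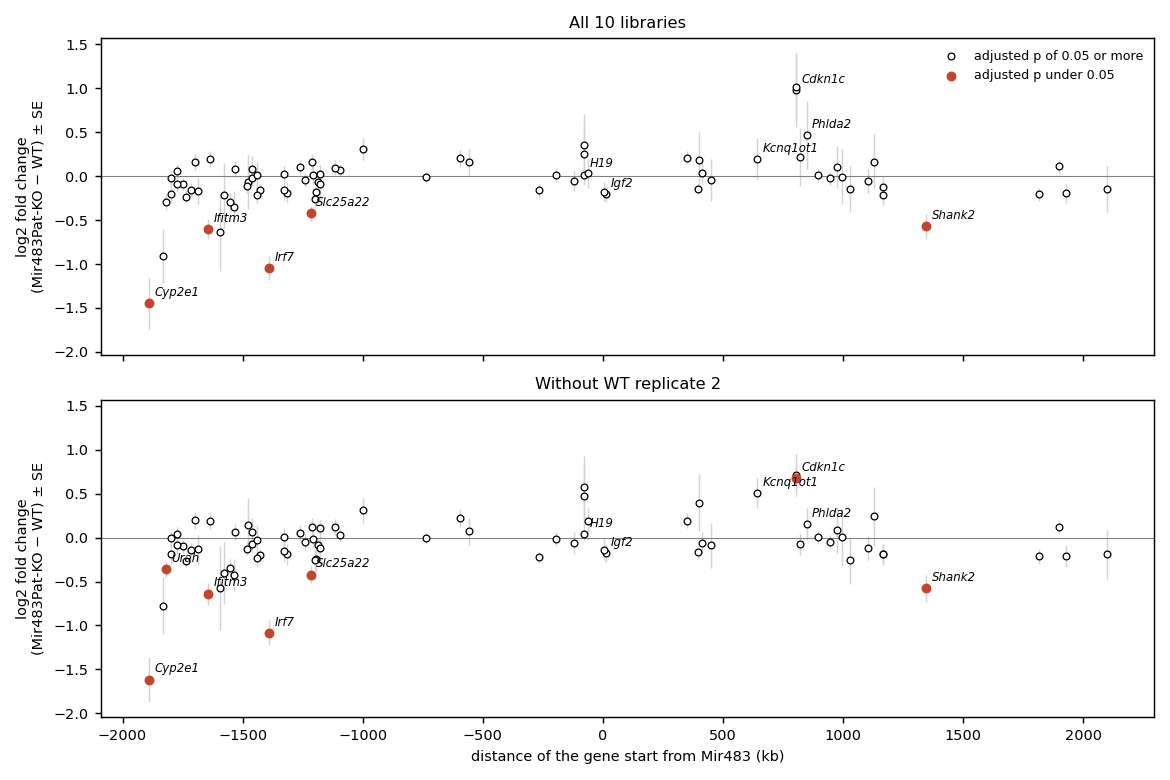
Log2 fold change (Mir483Pat-KO minus WT, with SE) of the tested genes within 2 Mb of Mir483 against the distance of their 5′ end from Mir483 in kb (1 long gene ends beyond the window), with all 10 libraries (top) and without WT replicate 2 (bottom). Red points passed at an adjusted p under 0.05, and Mir483 itself is left off the plot. Between Slc25a22 at -1217.1 kb and Shank2 at 1347 kb no point is red in the upper panel, and Cdkn1c at 806 kb is red in the lower panel alone.

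How unusual WT replicate 2 was outside this cluster was measured by counting genes that lay more than 4-fold below the lowest of the other 9 libraries, on log2 CPM with a prior count of 2. Of the 14098 genes tested there were 4 in WT replicate 2, and these were Phlda2 (3.96 below on the log2 scale), Cdkn1c (3.56), Slc22a18 (2.93) and Gm44732 (2.64). In the other libraries there were 0 to 2. More than 2-fold below the lowest there were 17 in WT replicate 2 and 2 to 23 in the others, so that over all genes the library did not have the most such genes. The 4 genes stand on chromosome 7 within the same cluster, without another tested gene between Cdkn1c and Phlda2 that kept its level. Gm44732 among them may not be separate from Cdkn1c.

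**Figure D5:**
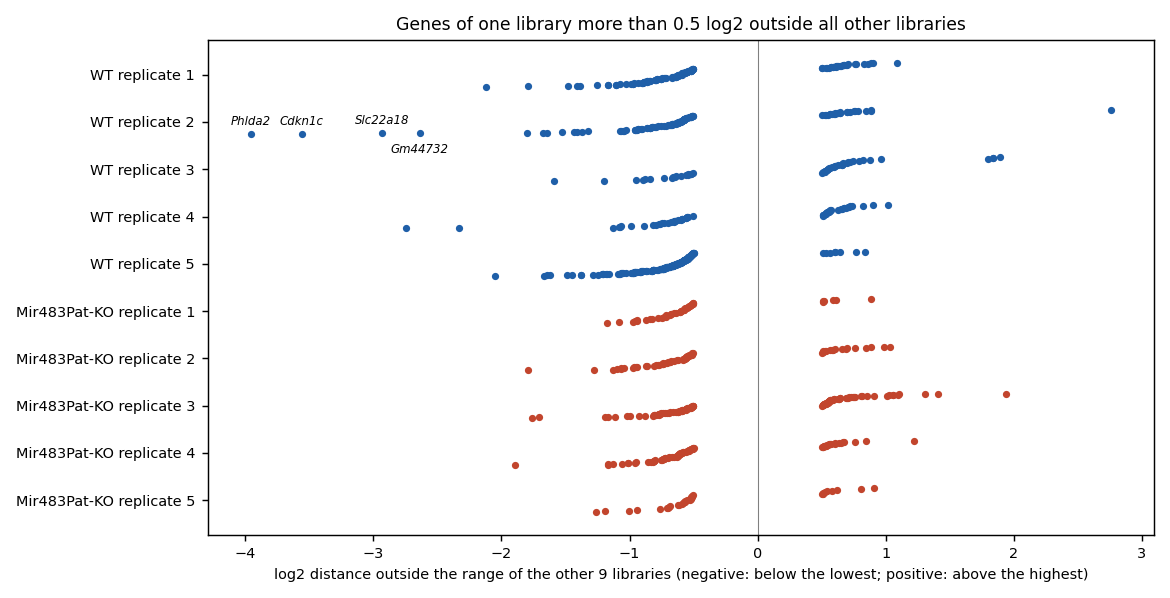
Distance outside the range of the other 9 libraries, in log2 CPM with a prior count of 2, for every tested gene more than 0.5 outside it, in rows by library (WT in blue, Mir483Pat-KO in red). The 4 labelled genes of WT replicate 2 lie between 2.64 and 3.96 below the lowest other library.

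Other imprinted genes did not show such a departure in WT replicate 2. Of 41 imprinted genes of other loci, listed after the values of this library were seen, 36 were tested, and 0 lay more than 2-fold outside the other 9 libraries. Their difference from the mean of the other 4 WT libraries ranged from -0.34 to 0.86 on the log2 scale. Between genotypes, 4 of the 36 passed, all higher in Mir483Pat-KO, against 5.19% of all genes in either direction and 2.43% in this one, with a median log2 fold change of 0.05. They were Rian (0.52 ± 0.0753) and Meg3 (0.33 ± 0.0830), maternally expressed noncoding RNAs of the Dlk1 domain, Peg10 (0.35 ± 0.0938), a retrotransposon-derived gene, and Usp29 (0.59 ± 0.165), of the Peg3 domain (log2 fold changes with SE). Rian alone passed without WT replicate 2.

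WT replicate 2 differed from the other libraries in placental genes as well. Over 31 genes of the placenta and trophoblast, listed after their values were seen, of which 26 had a count, the summed level was 131 CPM in WT replicate 2, 4.88 to 19.03 CPM in the other WT libraries and 0.873 to 3.95 CPM in Mir483Pat-KO. The trophoblast genes Prl3d1, Prl2c2, Prl7b1, Syna and Synb were at 0 in all libraries. Among the 14098 genes tested, Psg16, a pregnancy-specific glycoprotein gene, was the 1 gene of this library more than 4-fold above the highest other library. Placental genes with enough counts in too few libraries to be tested were not part of this count. The part of this RNA in the levels of Cdkn1c, Phlda2, Slc22a18 and Kcnq1ot1 was not tested.

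Marker levels of the other cell types of fetal liver are given for the whole lists, since in bulk tissue fewer cells of a type and less RNA per cell cannot be told apart. All 5 erythroid markers were detected, with sums of 5567 to 7776 CPM for WT against 6443 to 8955 CPM for Mir483Pat-KO. Mir483Pat-KO replicates 3, 4 and 5, all of the upper range and with the highest Cdkn1c, were the highest in erythroid markers, at 8940 to 8955 CPM. The same 3 libraries were below every WT library in hepatocyte markers, at 186370 to 191416 CPM. The sums of 6 mesenchymal and stellate markers were 307 to 652 CPM and 307 to 486 CPM, those of 5 endothelial markers 388 to 441 CPM and 338 to 422 CPM, those of 5 macrophage markers 410.9 to 521 CPM and 363 to 469 CPM, those of 4 megakaryocyte markers 141 to 301 CPM and 163 to 226 CPM, and those of 4 B lymphoid markers 44.7 to 63.3 CPM and 46.6 to 63.97 CPM. WT replicate 2 was the lowest WT library in erythroid (5567 CPM), macrophage (410.9 CPM), B lymphoid (44.7 CPM) and biliary markers (39.0 CPM against 52.1 to 90.1 CPM in the other WT libraries and 53.9 to 80.2 CPM in Mir483Pat-KO, 4 markers). The sums of 4 mesothelial markers were 18.2 to 33.4 CPM for WT against 17.9 to 25.1 CPM for Mir483Pat-KO. Markers of adjacent organs were low, with 0.812 to 1.86 CPM for 4 adrenal cortex genes and, for 6 pancreas genes, 0.355 to 9.42 CPM in 8 libraries but 14.4 and 47.4 CPM in WT replicates 4 and 3, with Pnlip at 0 in all. The part of these cell types in the results was not tested.

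Genes that keep imprints or act with these members were read from 3 lists, in which the shares that passed were near the 5.19% of all genes tested. Of 23 tested genes for imprint maintenance, 1 passed, Suz12, a subunit of the Polycomb repressive complex 2, which was higher in Mir483Pat-KO (0.35 ± 0.0941, adjusted p = 0.0408). Suz12 did not pass in the lower range alone or when WT replicate 3 or 4 or any single Mir483Pat-KO library was left out. At an unadjusted p under 0.05 there were 9 of the 23, 1 lower and 8 higher, against 22.2% of all genes tested, and the list had a median log2 fold change of 0.06. Of 18 tested genes for microRNA processing, 1 passed, Lin28b, an RNA-binding protein that blocks let-7 maturation, also higher (0.50 ± 0.127, adjusted p = 0.0333), with 3 at an unadjusted p under 0.05, and the list median was 0.02. Lin28b did not pass in the lower range alone or with GC content and length offsets. It also did not pass without WT replicate 4 or 5 or Mir483Pat-KO replicate 2, 3 or 4. Of 11 genes for IGF2 receptors and RNA-binding proteins, 0 passed (edgeR), 3 were at an unadjusted p under 0.05, as were 22.2% of all genes tested, and the median was 0.03. Dnmt3b, a de novo DNA methyltransferase, also passed without WT replicate 2, at a lower level in Mir483Pat-KO (-0.48 ± 0.117, adjusted p = 0.0255).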

How the data were processed

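Stranded polyA libraries were made by the authors from total liver RNA and sequenced as paired ends of 50 bases. Per the labels and the study's methods, STAR aligned the reads to GRCm38 and gave counts per gene. The deposited values are raw counts, 1 row for each Ensembl gene, and were not normalized. The strand column used and the handling of ambiguous reads are not given in the sources used here, so reads of overlapping genes may be split or lost.

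Groups were taken from the labels. The genotype test was edgeR 4.0.16 under R 4.3.3 (filterByExpr defaults, TMM, quasi-likelihood F-test, no covariates), and p-values were adjusted by the Benjamini-Hochberg method over all 14098 genes tested. A gene passed at an adjusted p under 0.05. Positions, exon lengths and transcripts came from GENCODE M21 and sequences from RefSeq, where 6 of the 10 genes had a promoter entry. Levels of single genes were compared with each other per kilobase of exon, while ratios of genes within a library were taken on counts without length scaling and compared between libraries. Ratios were compared over all 252 arrangements of the libraries, and correlations used 100000 permutations. The lowest chi-square per degree of freedom between the 20 pairs of libraries within a group was 4.54, so no library repeated another of its group.

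Alternatives were RLE scaling, unscaled totals, DESeq2 1.42.0, limma-voom (limma 3.58.1), a robust fit, other low-count filters, glmTreat, GC content and length offsets, the replicate block, the identification number range and each library left out. The settings that combine the loss of WT replicate 2 with another change, and the group means taken again after leaving out libraries, were chosen after seeing the data. The genes, lists and tests were chosen with earlier results of these data known. Named genes were the 10 members, the tested genes of both domains, up to 4 members that passed of each other list, up to 6 that passed within 2 Mb, and the 3 most alike for Igf2, H19 and Cdkn1c. Some genes outside this rule were named as examples. A gene that this rule names is not reported here. Scripts were tested on simulated data.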

Additional observations from a re-analysis of the deposited data

Results flagged for a closer look

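A library was singled out where its gap to the nearest other library of its group exceeded 0.71 of the range of the 5 libraries on log2 CPM (Dixon's 95% limit). Chance singles out about 1 in 20 such groups, and 6 of 50 were singled out here. The 50 include Gm44732 in WT, which was named after its values were seen and is among the 6. They also include Mir483 in Mir483Pat-KO, which had no counts, so that its gap came from library size alone. The share of 6 in 50 is therefore not a test against chance.

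4 of the 6 were WT replicate 2 as the lowest WT library, in Phlda2 (gap 0.882 of the range), Slc22a18 (0.87), Cdkn1c (0.838) and the antisense transcript Gm44732 (0.72). The same library had the highest Kcnq1ot1 level of all 10 and the highest summed level of placental genes. The counts do not separate parental alleles, and the allele from which these genes were expressed was not tested.

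The others were Mir483Pat-KO replicate 4 as the highest of its group in Igf2os (0.756, at 11.7 CPM) and Mir483Pat-KO replicate 2 in Tnfrsf26 (0.742, at 2.30 CPM).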

How the results depend on the processing

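Mir483 kept its direction under every setting that tested it, with log2 fold changes from -7.05 to -4.91, and passed in each that gave an adjusted p. DESeq2 gave none for it. Igf2, Phlda2, Slc22a18, Cd81, H19 and Nap1l4 passed under none of the settings tried. The number of the 10 genes that passed, 1 with all libraries, was 0 with DESeq2 and 0 with at least 10 counts in every library, where Mir483 and Phlda2 were not tested. It was 2 without a filter, 2 with GC content and length offsets, 3 with these offsets and the replicate block, and 1 to 2 with each library left out. Without WT replicate 2 it was 3 with the range as a covariate, 3 with the offsets, 2 with DESeq2, 2 with limma-voom and 1, without Cdkn1c, in the lower range alone. For the Kcnq1 domain, 0 in the fit reported, it was 1 without a filter, 1 with the offsets, 2 with offsets and block, and 0 to 1 with each library left out.

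For the gene lists, the number in the fit reported was 2. It was 4 with DESeq2, 5 without a filter, 5 with the replicate block and 6 with the range as a covariate. In the lower range alone it was 0, against a fold change of 1.5 (glmTreat) 0, and with each library left out 0 to 3. These calls were thus lost when any of several single libraries was left out. Within 2 Mb, 6 in the fit reported, it was 10 without a filter, 10 with offsets and block, 3 in the lower range alone, 1 with glmTreat and 1 within 1 Mb. Cdkn1c passed without a filter (adjusted p = 3.438e-05) and with offsets and block (adjusted p = 0.0474). Once WT replicate 2 was left out it passed in 13 of 14 settings. Kcnq1ot1 passed in 3 of those 14 (range as a covariate, DESeq2, and Mir483Pat-KO replicate 5 left out too).

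Some directions turned. With each library left out, H19 ran from -0.0099 to 0.0409, Nap1l4 from -0.0283 to 0.0391 and Slc22a18 from -0.0725 to 0.364. Slc22a18 without WT replicate 2 was -0.108 with the range, -0.0715 with DESeq2, -0.0768 with limma-voom and -0.341 in the lower range. With GC content and length offsets it was 0.0491, so its sign without that library was not stable either. With each library left out the log2 ratio difference ran from 0.170 to 0.294 for H19 to Igf2 and from 0.164 to 1.67 for Cdkn1c to Kcnq1ot1, the last without WT replicate 5 (exact permutation p = 0.0476). The correlation of Igf2 with H19 was -0.155 without its 2 farthest libraries (-0.164 with group means taken again), that of H19 with Cdkn1c was 0.198 in the latter way, and that of Igf2 with Cdkn1c was 0.585 without WT replicate 2. The cause was not tested.

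Same-numbered libraries of the groups had correlations of deviations of -0.0496 to 0.261 (mean 0.0871). As these were not above 0.1 in every pair, the numbers were not taken to pair the libraries, although 3 of 5 Mir483Pat-KO libraries correlated best with their own number, a hint from the data and not the design. With the replicate block Cdkn1c was 1.25 (adjusted p = 0.0635). At 0 to 22 counts Mir483 limits what can be said of its level within WT.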
